A study of Mus musculus with 15 samples.

Results

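The comparison described here sets mouse muscle stem cells taken 30 minutes into tissue dissociation (T30) against the same cell type from intact muscle (T0). Its members are the 3 T30 libraries, 30A to 30C, and the 4 T0 libraries, 0A to 0D, which are 7 of the 22 bulk RNA-seq libraries in the deposited time course, and all 8059 genes of the table were tested between them. The labels call the tissue intact at T0 and dissociated at T30, and call both groups fixed; dissociation used a mixture of collagenase and dispase and fixation used PFA, an aldehyde that crosslinks RNA and protein in place. The labels give the time numbers without a unit, and they are taken as minutes here. The sources used here do not give the strain, age and sex of the mice or how the stem cells were separated for bulk RNA. Nor do they say whether libraries came from separate animals. The p-values below therefore measure a spread between libraries, which may in part be technical. That spread was estimated in a joint fit of all 22 libraries and not from the 7 alone.

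Muscle stem cells, or satellite cells, lie between a muscle fibre and its basement membrane and rest outside the cell cycle until the fibre is damaged. They are marked by the transcription factor Pax7. Freeing them from muscle needs enzymes that digest the matrix, and many cell types are known to answer handling within minutes by transcribing immediate early genes, whose promoters are held ready and need no new protein to start. Many of these genes encode transcription factors (the FOS, JUN, EGR and NR4A families), and others encode brakes that end the response, such as MAP kinase phosphatases, inhibitors of cytokine signalling and proteins that destroy short-lived mRNAs. The question the comparison answers is which transcripts of the resting cell had already moved at this early stage of the procedure.

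Levels are in CPM, gene counts scaled to one common total for every library, with the totals taken over the listed genes and adjusted with TMM factors, and are given for single libraries in the order 0A, 0B, 0C, 0D and 30A, 30B, 30C. Fold changes are log2 of T30 over T0 with a standard error (SE). A gene was called where the edgeR quasi-likelihood test gave a Benjamini-Hochberg adjusted p under 0.05 over all 8059 genes, and only called genes are said to have risen or fallen. The library totals ran from 2974294 to 9745758 counts at T0 and from 3876418 to 9873856 at T30. Satellite cell markers were high in both groups: the 11 markers summed to between 4944 and 5816 CPM in the T0 libraries and to between 5339 and 6683 CPM at T30. Pax7 had 1523, 1321, 1463 and 1067 CPM at T0 and 1703, 1473 and 1817 CPM at T30, with overlapping groups.

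The libraries also differed in the read density over 8 long genes that are best known from other tissues, called the background here (the genes were chosen with their values known). This density was 3.096, 1.392, 3.88 and 1.953 CPM per kb of exon at T0 and 7.069, 5.225 and 1.541 CPM per kb at T30. Library 30A stood highest and 30B next, and 30C lay within the T0 range. The difference in means was 2.03 CPM per kb, or 0.803 without 30A and 3.57 without 30C. An exact two-sided permutation test over the 7 libraries gave p = 0.2857, where 0.05714 is the smallest p that 3 against 4 libraries allow. This p cannot decide whether the groups differ, because the genes were chosen with their values known. Listed genes also have a mean normalized count of at least 98.4, to which the compared libraries contribute. In the same libraries the background equalled 14.8% to 41.9% of the density of the median gene at T0 and 75.1%, 56.2% and 16.6% of it in 30A, 30B and 30C, so levels near it carry little information. In these bulk samples, fewer cells of a type and less RNA per cell cannot be told apart.

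To show the kind of promoters behind the genes described below, the 150 bases before the start of transcription are given for 6 raised genes, taken from the RefSeq table of GRCm38.p6, on the gene's own strand and 5′ to 3′. They were picked, with values known, because each holds a match to a binding motif of a factor family that the gene is known to answer to. Zfp36 encodes an mRNA decay factor, Actg1 a cytoplasmic actin and Srf the serum response factor SRF, and all 3 hold CArG boxes, the motif of SRF. Dusp1, a MAP kinase phosphatase gene, holds a cAMP response element (CRE), Cxcl1, a chemokine gene, a pair of overlapping NF-kB motifs, and Hmgcs1, a gene of cholesterol synthesis, a sterol regulatory element (SRE). The capitals mark the match, and positions count back from the start of transcription: -58 to -49 in Zfp36, -90 to -81 in Actg1, -82 to -73 and -62 to -53 in Srf, -143 to -136 in Dusp1, -71 to -61 in Cxcl1 and -137 to -129 in Hmgcs1. A match is a description of the letters and not a shown binding site.
Zfp36 (chr7:28379229-28379378, minus strand): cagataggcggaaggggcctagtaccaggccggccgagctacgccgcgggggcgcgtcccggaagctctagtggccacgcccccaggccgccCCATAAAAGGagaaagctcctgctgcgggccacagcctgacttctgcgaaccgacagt
Actg1 (chr11:120348496-120348645, minus strand): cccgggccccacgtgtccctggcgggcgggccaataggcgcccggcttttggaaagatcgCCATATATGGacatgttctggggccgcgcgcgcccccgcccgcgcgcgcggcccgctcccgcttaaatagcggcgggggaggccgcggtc
Srf (chr17:46556163-46556312, minus strand): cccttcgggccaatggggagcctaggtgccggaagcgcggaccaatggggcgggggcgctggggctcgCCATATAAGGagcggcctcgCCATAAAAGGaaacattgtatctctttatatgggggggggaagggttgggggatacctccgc
Dusp1 (chr17:26508473-26508622, minus strand): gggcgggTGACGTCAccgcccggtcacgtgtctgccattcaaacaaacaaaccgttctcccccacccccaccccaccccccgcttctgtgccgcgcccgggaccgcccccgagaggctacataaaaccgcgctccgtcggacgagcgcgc
Cxcl1 (chr5:90891095-90891244, plus strand): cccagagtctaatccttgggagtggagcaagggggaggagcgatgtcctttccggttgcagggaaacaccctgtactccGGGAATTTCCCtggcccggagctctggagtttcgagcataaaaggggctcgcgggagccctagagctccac
Hmgcs1 (chr13:119690201-119690350, plus strand): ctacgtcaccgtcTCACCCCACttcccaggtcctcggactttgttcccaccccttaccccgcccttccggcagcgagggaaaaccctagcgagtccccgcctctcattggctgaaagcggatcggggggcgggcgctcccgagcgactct

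Such matches were uncommon among raised genes as a whole. A promoter window of 300 bases, 250 before to 50 after the start, was matched for 6139 of the 8059 genes and for 210 of the raised ones, and both strands were searched. A CArG box was found in 1.5% of all windows, in 2.86% (6 of 210) of those of raised genes and in 0% of the 87 of fallen genes. The CRE, spelled TGACGTCA, was found in 3.81% of all windows, in 4.76% of those of raised and in 3.45% of those of fallen genes. The AP-1 motif, spelled TGANTCA, was found in 4.14% of all, 8.57% of raised and 3.45% of fallen genes' windows, but in 2.63% of the 38 of genes raised at least 4-fold. The NF-kB motif was found in 4.89%, 8.1%, 6.9% and 15.8% of the same 4 sets. Of the 38 windows of genes raised at least 4-fold, 2 held a CArG box (5.26%) and 3 a CRE (7.89%). In the 150 bases before the start alone, the shares over all, raised and fallen genes were 2.26%, 5.71% and 2.3% for AP-1. They were 2.54%, 4.76% and 4.6% for NF-kB, 0.88%, 2.86% and 0% for the CArG box and 3%, 4.29% and 2.3% for the CRE. The SRE, spelled TCACNCCAC and searched after the sterol genes had been seen, was found in 1.04% of all and 1.43% of raised genes' windows. A single window near the start leaves out enhancers, and no test was run on these shares.

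After 30 minutes 403 genes were called, 5% of those tested: 295 rose (3.66%) and 108 fell (1.34%). The counts of called members given below for each gene list are to be read beside these shares. Among the listed genes, rises were larger than falls. The table's lowest mean normalized count is 98.4. A gene low at T0 can reach this through higher later libraries, while one that stayed low is left out. What this did to the sizes of rises and falls was not tested. Of the raised genes 152 rose at least 2-fold (1.89% of genes tested), 51 at least 4-fold and 16 at least 16-fold, while 10 of the fallen genes fell at least 2-fold (0.124%). The median log2 fold change was 1.03 over the raised genes, -0.58 over the fallen ones and -0.01 over all genes. Folds of genes near the background are rough: 43 of the 295 raised genes, and 18 of the 51 raised at least 4-fold, had a T0 density under the mean T0 background of 2.58 CPM per kb. Among them are Fosb, Hspa1a, Hspa1b, Csrnp1, Tnfrsf12a, Gadd45b, Cxcl1, Egr3 and Actg1, and their standard errors do not cover this. With all or 0.5 of the background subtracted, the log2 fold change of Fosb, for one, was 19.3 or 11.18 in place of 8.7. Together the raised genes went from a mean of 15160 CPM at T0 to 50780 CPM at T30, and the fallen genes from 19500 to 11980 CPM. The first principal component of the 7 libraries held 52.6% of their variance. It placed all 4 T0 libraries on one side (-26.3 to -6.96) and all 3 T30 libraries on the other (8.81 to 35.3). Within each group its order was that of the background density, namely 0B, 0D, 0A and 0C at T0 and 30C, 30B and 30A at T30. What part the background had in this component was not tested.

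A larger share of the rises than of the falls was called again when libraries were left out. Of the raised genes, 292 had every T30 library above every T0 library, and 103 of the fallen genes had every T30 library below. Without regard to the test, 679 genes lay wholly above (8.43%) and 713 wholly below (8.85%), so lack of overlap by itself was about as common in both directions. Leaving out each of the 7 libraries in turn left 183 rises called every time but 14 falls, and 158 rises and 12 falls were called under all of 17 other settings that tested them; these leave aside 2 further settings, added after the data were seen, that dropped several libraries at once. Of the 12 falls 11 were called without 0C and 30A, and 2 without 0A, 0C, 15D, 30A and 30B, which leaves T30 with 1 library. With the authors' size factors in place of TMM factors the split was 437 up and 41 down, with the median of all genes moved from -0.01 to 0.09.

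**Figure D1:**
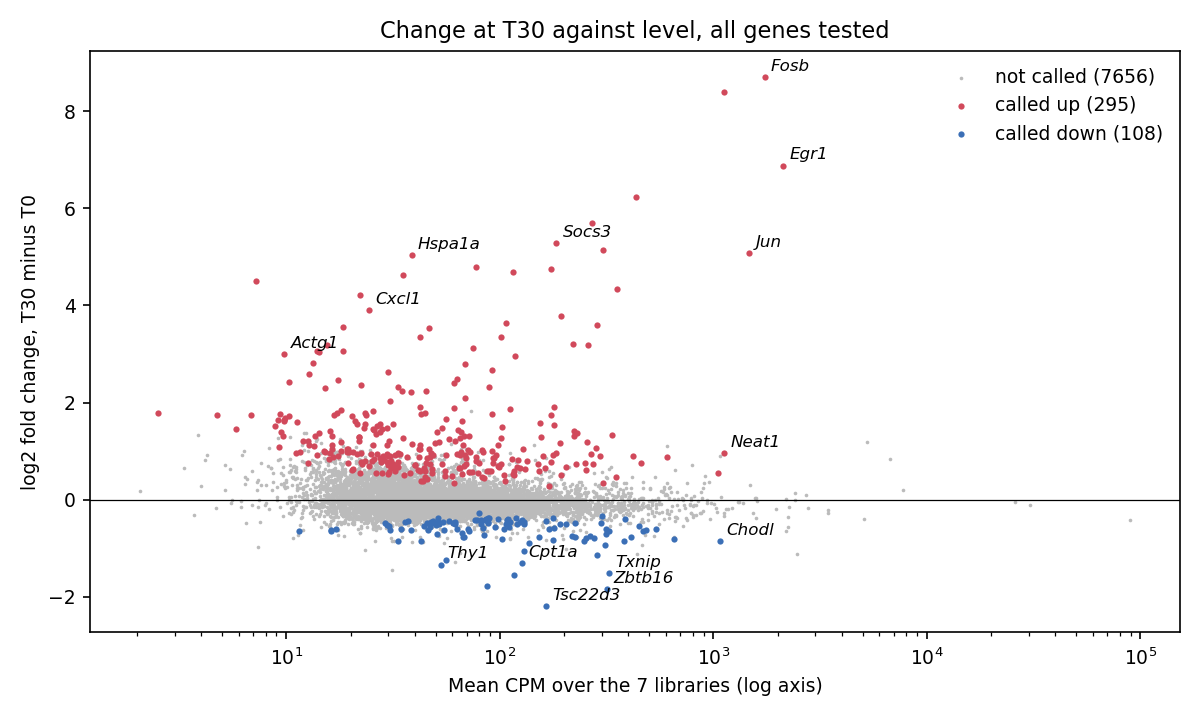
Log2 fold change of T30 over T0 against the mean CPM of the 7 libraries (log axis) for the 8059 genes tested, with the 295 raised and 108 fallen genes in colour. Fosb (8.7) and Fos (8.4) lie highest, and the lowest of the fallen genes is Tsc22d3 at -2.19.

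The AP-1 transcription factors, dimers of FOS, JUN, ATF and MAF proteins, held the largest changes of the comparison. Of 14 measured members of this list 9 rose and 0 fell, with a median log2 fold change of 1.98 against -0.01 for all genes. Fosb (chr7:19302696-19310051, minus strand) was near the bottom of the range at T0, with 8.47, 5.91, 18.2 and 7.82 CPM, and reached 4215, 3795 and 4130 CPM at T30. That is a log2 fold change of 8.7 ± 0.44 (adjusted p = 1.11e-11), and the 3 T30 libraries lay close together. Fos (chr12:85473890-85477273, plus strand), its best known relative, had 9.03, 4.87, 11.2 and 6.65 CPM and then 2808, 2332 and 2680 CPM, a change of 8.4 ± 0.47 (adjusted p = 3.78e-11). Per kb of exon, Fos went from 3.37 to 1108 CPM, and the T0 level is close to the background density of 2.58 ± 1.12 CPM per kb (SD, n = 4), so the fold is a rough figure at its lower end.

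The JUN partners of FOS started from higher levels. Jun had 122, 92.7, 65.9 and 111 CPM at T0 and 2959, 3046 and 3923 CPM at T30 (5.08 ± 0.38; adjusted p = 6.35e-09). Junb had 10.3, 13.2, 19.3 and 11.2 CPM and then 1123, 814 and 1063 CPM (6.24 ± 0.31; adjusted p = 1.11e-11), and Jund 39.5, 58.9, 51.4 and 49.3 CPM and then 563, 528 and 709 CPM (3.59 ± 0.22; adjusted p = 1.69e-10). In each of the 3 genes the groups were far apart. In mean level, Fosb, Fos, Jun, Junb and Jund gained 4036, 2599, 3212, 986 and 550.2 CPM, and they are 5 of the 10 genes with the largest gain in mean CPM.

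Further AP-1 partners rose from low levels. Atf3, a stress-induced factor, had 10.3, 3.3, 7.54 and 4.41 CPM and then 228, 136 and 151 CPM (4.8 ± 0.38), and the small MAF factors Maff and Mafk rose by 2.21 ± 0.29 and 1.49 ± 0.18. Fosl2 rose by 1.75 ± 0.2. Fosl1, a FOS relative better known from growing cells, had 8.09, 2.09, 6.42 and 1.44 CPM at T0 and 14.2, 8.4 and 3.55 CPM at T30, with overlapping groups (adjusted p = 0.398). Mafg and Jdp2, the latter a repressor of AP-1, had log2 fold changes of 0.05 ± 0.15 and 0.2 ± 0.2 (adjusted p = 0.886 and 0.632).

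**Figure D2:**
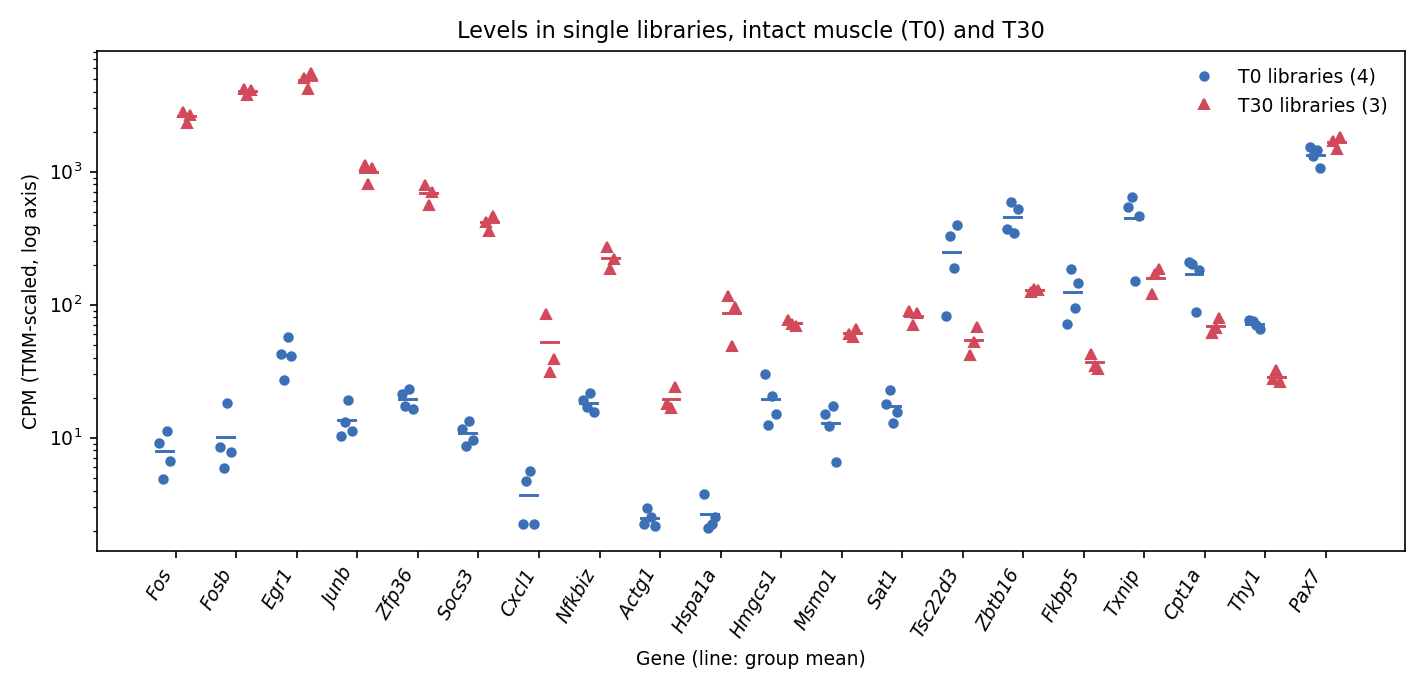
CPM in each library on a log axis for 20 genes, with 4 T0 libraries as circles, 3 T30 libraries as triangles and lines at the group means. The raised genes from Fos to Sat1 show no overlap of the groups; of the fallen genes Txnip overlaps through the T0 library 0C, and Pax7 overlaps too.

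The EGR and NR4A factors followed the same course. EGR proteins are zinc finger factors induced by MAP kinase signalling, and NR4A proteins are nuclear receptors that need no known ligand. Of 8 measured members 6 rose and 0 fell, with a median of 2.86. Egr1 had 42.5, 27.1, 57 and 41.2 CPM at T0 and 5057, 4200 and 5468 CPM at T30, a change of 6.88 ± 0.3 (adjusted p = 2.29e-12) and the largest gain in mean CPM of any called gene (4866 CPM). Nr4a1 had 11.3, 5.22, 16.8 and 14.2 CPM and then 664, 566 and 607 CPM (5.7 ± 0.38; adjusted p = 7.61e-10). The relatives moved less: Egr2 rose by 3.54 ± 0.33, Egr3 by 3.05 ± 0.36, Nr4a3 by 2.68 ± 0.27 and Nr4a2 by 1.79 ± 0.37. The corepressors Nab1 and Nab2, which bind EGR proteins, had 0.12 ± 0.12 and 0.59 ± 0.21 (adjusted p = 0.639 and 0.121), and Nab2 was called up once the background was subtracted.

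Among 11 measured KLF factors, zinc finger proteins that include several quick responders, 3 rose and 0 fell. Klf4 had 14.7, 17.9, 30.4 and 20 CPM at T0 and 250.2, 181 and 193 CPM at T30 (3.34 ± 0.36), with library 0C the highest of its group and still far below T30. Klf16 rose by 1.76 ± 0.25 and Klf6 by 1.13 ± 0.2. After subtraction of the background the call of Klf16 was lost. Klf10, which answers to TGF-beta, had 85.1, 58.8, 24.6 and 44.3 CPM and 45.4, 62.6 and 53.6 CPM with overlapping groups (adjusted p = 0.987).

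The list of other immediate early genes had 15 of 20 measured members up and 0 down, with a median of 1.49. Ier2, a nuclear protein of unsettled biochemistry, had 17.1, 10.4, 20.4 and 11.1 CPM at T0 and 397, 372 and 387 CPM at T30 (4.75 ± 0.24; adjusted p = 1.11e-11). Ier3, a survival factor, had 0.565, 0.696, 0.559 and 0.809 CPM and then 23, 9.8 and 14.9 CPM (4.5 ± 0.4), and per kb of exon its T0 mean of 0.581 CPM was under the background density, so its fold is uncertain. Csrnp1, Sertad1 and Arid5a rose by 3.56 ± 0.39, 3.06 ± 0.36 and 2.95 ± 0.24; Arid5a encodes an RNA-binding protein that stabilises inflammatory mRNAs. Srf rose in a narrow band, from 34.4, 33.9, 33 and 28.9 CPM to 74.6, 75.4 and 68.1 CPM (1.16 ± 0.12; adjusted p = 7.89e-07). Smaller rises were those of Ifrd1 (1.9 ± 0.15), Rhob (1.61 ± 0.17), a small GTPase of endosomes and actin, the salt-inducible kinase Sik1 (1.37 ± 0.19), Plk3 (2.46 ± 0.31), Rnd3 (1.05 ± 0.25), Gem (0.89 ± 0.17) and Plk2 (0.87 ± 0.22). Calls lost when 1 library was left out were those of Ier5 (without 0B, 0D, 30A or 30B), Rnd3 (without 30C) and Plk2 (without 0B or 30B).

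Genes whose proteins destroy mRNA or slow its translation rose too. Of 10 measured ZFP36 and BTG family genes and their relatives, 6 rose and 0 fell. Zfp36 (chr7:28376784-28380253, minus strand), which encodes tristetraprolin, the decay factor of AU-rich mRNAs such as those of cytokines, had 21.4, 17.4, 23.2 and 16.4 CPM at T0 and 788, 561 and 706 CPM at T30 (5.14 ± 0.24; adjusted p = 4.88e-12). Btg2, an antiproliferative factor that recruits deadenylases, had 38.4, 41, 28.5 and 44 CPM and then 863, 684 and 771 CPM (4.34 ± 0.24; adjusted p = 3.78e-11). Both stood well clear of T0 in every library. Zfp36l1 rose by 1.33 ± 0.16 and Tob1 by 0.91 ± 0.2, whereas Zfp36l2 and Btg1, which were already high at T0 (263 ± 51.1 and 133 ± 26.6 CPM; SD, n = 4), had 0.68 ± 0.28 and 0.59 ± 0.19 (adjusted p = 0.188 and 0.0874). Btg1 was called up with the authors' size factors, with DESeq2 and with the background subtracted. Zc3h12a, an endonuclease that cuts inflammatory mRNAs, rose by 1.73 ± 0.24. Tob1 lost its call without 30A.

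Of 17 measured inhibitors of MAP kinase and receptor signalling 4 rose and 0 fell. Dusp1, a nuclear phosphatase of MAP kinases, had 45, 59.6, 38.8 and 50.6 CPM at T0 and 417, 509 and 429 CPM at T30 (3.21 ± 0.17; adjusted p = 3.16e-11). The phosphatases Dusp5 and Dusp6 rose by 1.63 ± 0.42 and 1.05 ± 0.26, and the receptor antagonist Spry4 by 0.88 ± 0.2. Spry1, a related antagonist tied to the resting state of satellite cells, had 333, 427, 366 and 364 CPM and 384, 319.6 and 424 CPM (0.01 ± 0.22; adjusted p = 0.981). Erf, an ETS repressor that MAP kinases switch off, is outside that list and was named after its values were seen; it had 23.7, 12.9, 17.3 and 22.9 CPM and then 178, 111 and 116 CPM (2.8 ± 0.24). Calls lost with 1 library fewer were those of Dusp5 (without 0B, 0D or 30A) and Dusp6 (without 0B or 30B).

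Genes downstream of gp130 cytokine receptors and STAT3 had 5 of 14 measured members up and 0 down. Socs3, the feedback inhibitor of these receptors, had 11.7, 8.69, 13.4 and 9.53 CPM at T0 and 421, 359.6 and 464 CPM at T30 (5.28 ± 0.34; adjusted p = 3.52e-10), with the groups far apart. Bcl3, the kinase genes Pim3 and Pim1, and Cebpd rose by 1.75 ± 0.28, 1.61 ± 0.25, 1.21 ± 0.3 and 1.42 ± 0.4. Cebpd was spread widely at T0, with 44, 224, 90.8 and 158 CPM, and its call was lost when any 1 of 0A, 0C, 0D, 30A, 30B or 30C was left out and with the 7 libraries alone (adjusted p = 0.123). Pim1 lost its call without 0A or 30A. Stat3 itself had 0.36 ± 0.18 (adjusted p = 0.293).

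Of 17 measured NF-kB genes, which include the factors, their IkB inhibitors and cytokines, 8 rose and 0 fell, with a median of 0.87. Cxcl1, a neutrophil-attracting chemokine, had 2.26, 4.69, 5.59 and 2.25 CPM at T0 and 85.7, 31 and 39 CPM at T30 (3.9 ± 0.48; adjusted p = 1.09e-05). Library 30A held more than either other T30 library. Nfkbiz, an atypical IkB protein of the nucleus, had 19, 17, 21.5 and 15.6 CPM and then 273, 184 and 219 CPM (3.64 ± 0.25; adjusted p = 1.2e-09). Irf1, an interferon-responsive factor, rose by 2.48 ± 0.32, and Tnfrsf12a, the receptor of the cytokine TWEAK, had 3.39, 2.78, 3.91 and 3.78 CPM and then 29, 29 and 36.6 CPM (3.19 ± 0.21). The inhibitors Nfkbia and Nfkbie rose by 1.04 ± 0.22 and 1.47 ± 0.3, and the factors Relb and Nfkb2 by 0.95 ± 0.2 and 0.92 ± 0.18. Relb lost its call without 30A and with the 7 libraries alone (adjusted p = 0.0548).

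The immune marker list bears on these genes. Of its 12 members 1, Cd68, a lysosomal protein of macrophages that other cells make too, is listed in the table, and it rose by 1.72 ± 0.34 (adjusted p = 0.00298). Cd68 had 11.9, 9.56, 10.1 and 9.44 CPM at T0 and 50.5, 30.6 and 20.9 CPM at T30, and the 3 T30 libraries were ordered as in the background density, with 30A highest and 30C lowest. The call of Cd68 was lost without 0C and 30A together. The part of immune cells or of the background in these rises was not tested.

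Targets of SRF and of YAP, which read actin state and mechanical load, had 8 of 27 measured members up and 0 down. Ccn1, a matrix-associated signalling protein, had 9.6, 12.7, 8.38 and 9.08 CPM at T0 and 225, 248 and 294 CPM at T30 (4.68 ± 0.26; adjusted p = 3.16e-11). Its relative Ccn2 rose by 1.47 ± 0.28, Thbs1 by 1.76 ± 0.33 and Ankrd1 by 1.25 ± 0.24. Actg1, whose promoter is shown above, had 2.26, 2.96, 2.51 and 2.16 CPM and then 17.9, 16.8 and 23.9 CPM (3 ± 0.32; adjusted p = 1.11e-06), with the groups apart. Actg1 has many near-identical pseudogene copies that can share its reads, so its level is uncertain. Actb rose from 960.2, 1026, 808 and 703 CPM to 979, 1300 and 1562 CPM (0.55 ± 0.16), just under the threshold, and Zyx, a focal adhesion protein, by 0.62 ± 0.15. Calls lost without 1 library were those of Zyx (without 0D or 30C) and Actb (without 0C, 0D, 30B or 30C).

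Other cytoskeletal genes moved with them. Of 9 measured tubulin genes, a list drawn up after values were seen, 3 rose and 0 fell: Tubb6 by 1.39 ± 0.25, Tubb4b by 1.31 ± 0.14 and Tuba1a by 0.92 ± 0.18. Tubb4b had 45.9, 44.7, 36.6 and 38.8 CPM at T0 and 88.3, 115 and 104 CPM at T30. Tubulin genes are similar in sequence, so reads may be split between them. Of 28 measured TGF-beta and BMP genes 7 rose and 0 fell. Some of the called members encode inhibitors of this signalling. They include Bambi (1.52 ± 0.29), a decoy receptor, and Skil (1.17 ± 0.19) and Tgif1 (1.02 ± 0.14), which repress SMAD targets. Another is Smurf1 (0.39 ± 0.11), a ligase that degrades SMAD proteins. Id3, which blocks myogenic factors, rose by 1.21 ± 0.17. The receptor Acvr1 rose by 0.46 ± 0.11.

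Heat shock genes moved in part. Of 23 measured chaperones and co-chaperones 10 rose and 1 fell, with a median of 0.11. The inducible HSP70 genes Hspa1a and Hspa1b had 3.76, 2.09, 2.23 and 2.52 and 3.76, 3.65, 3.07 and 2.52 CPM at T0, and 116, 48.6 and 95.9 and 87, 40 and 108 CPM at T30, with 30B lowest for both. Their changes were 5.03 ± 0.55 and 4.63 ± 0.54; the pair is nearly identical in sequence, so how reads were shared between them is uncertain. Dnajb1, the HSP40 partner of HSP70, had 22, 18.3, 22.4 and 22.9 CPM and then 123, 94.8 and 124 CPM (2.41 ± 0.32; adjusted p = 3.43e-05). Smaller rises were those of Hspa2 (1.28 ± 0.29), Dnaja1 (0.85 ± 0.24), Bag3 (0.84 ± 0.18) and Hsp90aa1 (0.8 ± 0.2). Of the 12 members that did not pass the test, the constitutive Hspa8, at 305 ± 63 CPM at T0 (SD, n = 4), had 0.11 ± 0.23, and Hsph1, which heat induces, 0.09 ± 0.22 (adjusted p = 0.827 and 0.861). Stip1, which joins HSP70 to HSP90, fell (-0.49 ± 0.13; adjusted p = 0.0379). Calls lost on leaving out 1 library were those of Hspa2 (without 30A), Dnajb5 (without 0A, 0B, 0D, 30A or 30B), Dnaja1 (without 0A, 0B, 0C, 0D, 30A, 30B or 30C), Hsp90aa1 (without 30C), Dnajb9 (without 0D or 30A), Dnajb4 (without 30A) and Stip1 (without 0A, 0B, 0D, 30A or 30B).

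The integrated stress response, which lowers translation and raises ATF4, had 4 of 21 measured members up and 0 down. Ppp1r15a, whose protein restarts translation, had 51.4, 60.5, 57.8 and 61.1 CPM at T0 and 585, 465 and 535 CPM at T30 (3.19 ± 0.2; adjusted p = 2.66e-10). Atf4 had 109, 92, 90 and 106 CPM and then 288, 278 and 294 CPM (1.53 ± 0.14; adjusted p = 1.51e-07), a smaller rise with little spread. Trib1 rose by 1.19 ± 0.22 and Ddit3 by 0.94 ± 0.22, the latter lost without 30A. The endoplasmic reticulum chaperone Hspa5, a readout of the unfolded protein response, had 0.32 ± 0.14 (adjusted p = 0.213).

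Oxidant and DNA damage response lists moved in part. Of 21 measured NRF2 targets and metallothioneins 4 rose and 0 fell: the metal-binding Mt1, with 27.7, 37.4, 25.7 and 23 CPM and then 128, 83.6 and 103 CPM (1.88 ± 0.25), Mt2 (1.15 ± 0.2), Osgin1 (1.56 ± 0.26) and the thioredoxin reductase Txnrd1 (0.57 ± 0.15). Hmox1, the best known of the NRF2 targets, stayed low, with 7.34, 2.78, 6.15 and 3.33 CPM and 6.86, 5.2 and 4.38 CPM (adjusted p = 0.901). Of 20 genes regulated by p53, 8 rose and 0 fell, among them Cdkn1a, the cell cycle inhibitor p21, with 5.46, 6.96, 5.03 and 4.95 CPM and then 45.2, 21.2 and 17.9 CPM (2.3 ± 0.33), and Gadd45b (3.06 ± 0.34), Gadd45g (1.75 ± 0.39) and Gadd45a (1.12 ± 0.15). Several of these 8 are immediate early genes as well. Mdm2, a direct p53 target, had 0.26 ± 0.11 (adjusted p = 0.182) and was called up once the background was subtracted. Calls lost without 1 library were those of Txnrd1 (without 0B, 0D or 30C), Bbc3 (without 0A, 0B, 0C or 30A) and Plk2 (without 0B or 30B).

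Genes of cholesterol synthesis and uptake rose across much of the pathway. The list was drawn up after its leading members had been seen, so its count is a description. Of 22 measured members 13 rose and 0 fell, with a median log2 fold change of 0.97, beside 3.66% raised and a median of -0.01 over all genes. Many of these genes, though not every listed member, share control by SREBP factors, which are released from the endoplasmic reticulum when sterols are scarce. Between 11 and 14 members were called up when any 1 library was left out.

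Early on the synthesis route, Hmgcs1, which makes HMG-CoA, had 30.3, 12.3, 20.7 and 15.1 CPM at T0 and 76.2, 71.4 and 69.6 CPM at T30 (1.9 ± 0.27; adjusted p = 5.54e-05). Library 0A was highest at T0, and each T30 library was above every T0 library.

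Later steps of the route rose as well. Fdft1, which commits carbon to sterols, had 16.8, 11.8, 19.3 and 11.2 CPM and then 37.9, 39.8 and 41.5 CPM (1.45 ± 0.29), and Sqle, the epoxidase of squalene, 17.1, 8.69, 21.2 and 12.7 CPM and then 48.7, 43.8 and 33.7 CPM (1.52 ± 0.36). Cyp51, which removes a methyl group from lanosterol, rose by 1.75 ± 0.3, Msmo1, the next oxidase, by 2.31 ± 0.43, Hsd17b7 by 1.42 ± 0.31 and Sc5d by 1.01 ± 0.28. Msmo1 had 15.1, 12.2, 17.3 and 6.56 CPM at T0 and 60.4, 56.8 and 65.4 CPM at T30, without overlap. The sterol sensor partner Insig1 rose by 1.79 ± 0.2 (adjusted p = 2.75e-06), the sterol carrier Stard4 by 1.21 ± 0.21, and the factors Srebf1 and Srebf2 by 0.66 ± 0.15 and 0.66 ± 0.12.

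Members that did not pass the test were of several kinds. Lss, which closes the sterol ring, had 34.2, 15.5, 32.4 and 20.2 CPM and then 66, 63.4 and 39.1 CPM (1.14 ± 0.33; adjusted p = 0.0505) and was just outside the threshold. Scap, the escort of SREBP, and Insig2 had 0.05 ± 0.13 and -0.08 ± 0.2, and Npc1, which exports cholesterol from lysosomes, had -0.19 ± 0.13 (adjusted p = 0.868, 0.863 and 0.444). The cholesterol exporter Abca1 had -0.4 ± 0.3 (adjusted p = 0.51). Of the called members, Srebf1 (without 30C), Sqle (without 0B, 0D or 30A) and Sc5d (without 0B, 0D, 30A, 30B or 30C) lost the call with 1 library fewer.

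Fatty acid genes moved in both directions. Of 19 measured, on a list also made after values were seen, 5 rose and 2 fell. The synthesis genes Fasn (0.76 ± 0.15) and Scd2 (0.77 ± 0.21) and Aacs, which feeds ketone carbon into lipid (0.78 ± 0.17), were among those raised. Fasn had 191, 157, 224 and 202 CPM at T0 and 329, 294 and 363 CPM at T30. The fallen genes were both of oxidation: Cpt1a, the entry step of mitochondrial fatty acid oxidation, and Hsd17b4, a peroxisomal enzyme (-0.44 ± 0.12). Cpt1a had 209.8, 203, 88 and 183 CPM and then 61.3, 67 and 78.7 CPM, a change of -1.31 ± 0.25 (adjusted p = 0.00179), with library 0C far below the other T0 libraries and still above T30. Other oxidation genes on the list, such as Acadm and Hadha, did not pass the test (-0.54 ± 0.21 and -0.15 ± 0.1). Calls lost without 1 library were those of Scd2 (without 0A, 0B, 30A, 30B or 30C), Mid1ip1 (without 30A) and Hsd17b4 (without 0B, 0D, 30A or 30B).

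Polyamine control genes rose without the synthesis enzymes passing the test. Of 8 measured on a list made after values were seen, 3 rose and 0 fell. Sat1, which acetylates polyamines for export, had 17.9, 22.9, 12.8 and 15.6 CPM at T0 and 89.9, 70.6 and 86.8 CPM at T30 (2.24 ± 0.19; adjusted p = 4.01e-08). Azin1, which shields ornithine decarboxylase from its antizyme, had 51.9, 37.4, 40.2 and 45.2 CPM and then 124, 85.8 and 116 CPM (1.31 ± 0.14), and the antizyme gene Oaz1 rose by 0.98 ± 0.21. Odc1, the decarboxylase itself, had 46.9, 24.9, 46.6 and 29.5 CPM and 69.1, 51.8 and 69.5 CPM (0.8 ± 0.25; adjusted p = 0.0689). Of transporters, Slc38a2, a carrier of neutral amino acids, rose by 0.96 ± 0.17.

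Among growth factor genes and receptors 2 of 15 measured rose and 1 fell, beside 3.66% raised and 1.34% fallen over all genes. Vegfa, the endothelial growth factor, had 70.6, 65.2, 69.8 and 72.2 CPM at T0 and 152, 112 and 129 CPM at T30 (0.91 ± 0.14; adjusted p = 0.000117), and Pdgfa rose by 0.97 ± 0.22. Egfr, the EGF receptor, had 391, 650.4, 406 and 539 CPM and then 268, 255 and 357 CPM, a change of -0.76 ± 0.19 (adjusted p = 0.0203). The call of Egfr was lost without 0B, 0D, 30A or 30B and with the 7 libraries alone (adjusted p = 0.0981).

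Targets of the glucocorticoid receptor held the 3 largest falls in log2 fold change, though the list went both ways. Of 19 measured members 4 fell (1.34% of all genes fell) and 3 rose, with a median of 0.13. Tsc22d3 (chrX:140539528-140600659, minus strand), which encodes the anti-inflammatory protein GILZ, had 82.6, 327, 189 and 396 CPM at T0 and 42.1, 52.2 and 68.3 CPM at T30 (-2.19 ± 0.45; adjusted p = 0.00369). Its T0 libraries were widely spread, with 0A lowest, and none reached down to T30. Zbtb16 (chr9:48654297-48836222, minus strand), a zinc finger repressor, had 372, 595, 346 and 522 CPM and then 125, 131 and 128 CPM (-1.84 ± 0.24; adjusted p = 2.57e-05), with all 3 T30 libraries at nearly the same level. Fkbp5, a chaperone partner of the receptor and a common readout of steroid exposure, had 71.9, 187, 95 and 144 CPM and then 42.7, 34.8 and 32.8 CPM (-1.77 ± 0.3; adjusted p = 0.000538).

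Of the other targets Foxo3 fell as well, and those named next did not pass the test or rose. Sgk1 and Klf9, among the best known, had 0.17 ± 0.18 and 0.34 ± 0.22 (adjusted p = 0.647 and 0.43), Per1 had 180.3, 276, 275 and 319.7 CPM and then 389.9, 415 and 414 CPM (0.63 ± 0.21; adjusted p = 0.0874), and the list's raised members were Mt1, Mt2 and Gadd45g, each of which answers to other signals too. The call of Gadd45g was lost with the 7 libraries alone. Foxo3, a forkhead factor tied to stem cell rest, is also on this list and had 276, 415, 259.8 and 395 CPM and then 151, 199.9 and 232 CPM (-0.79 ± 0.21; adjusted p = 0.0308). Its call was lost without 0B, 0D, 30A or 30B, with the authors' size factors and with the 7 libraries alone.

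Clock output genes fell in part. Of 16 measured clock genes 4 fell and 2 rose. Dbp, a PAR-bZIP factor driven directly by the clock, had 88.6, 65, 61.7 and 82.1 CPM at T0 and 25.2, 35.4 and 33.7 CPM at T30 (-1.24 ± 0.33; adjusted p = 0.0329), and its relative Tef had -0.76 ± 0.19. The repressors Nr1d1 and Nr1d2 had -0.85 ± 0.24 and -0.72 ± 0.2. Nfil3, which opposes Dbp on the same sites, had 13.4, 10.3, 16.8 and 12.7 CPM and then 72.8, 45.4 and 43.6 CPM (2.03 ± 0.24; adjusted p = 7.01e-06), and Bhlhe40, a repressor that many stimuli induce, rose by 1.01 ± 0.23. The falls were near the threshold: with the authors' size factors the calls of Dbp, Nr1d1, Tef and Nr1d2 were lost, and without 1 library those of Dbp (without 0A, 0B, 0D, 30A, 30B or 30C), Nr1d1 (without 0B, 0D, 30A or 30B), Tef (without 0D, 30B or 30C) and Nr1d2 (without 0A, 0B, 0D, 30A or 30B).

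Other falls were smaller. Thy1, a surface glycoprotein, had 76.6, 74.9, 70.1 and 65.6 CPM at T0 and 27.4, 32 and 26.1 CPM at T30 (-1.34 ± 0.3; adjusted p = 0.00815). Its groups were narrow and far apart. Slc43a3, a nucleobase transporter, had 299, 488, 304 and 399 CPM and then 169, 121 and 213 CPM (-1.15 ± 0.23; adjusted p = 0.00338). Serpini1, which encodes neuroserpin, and Pde10a, a phosphodiesterase of cyclic nucleotides, had -1.05 ± 0.21 and -0.94 ± 0.16, with 354, 418, 380.2 and 421 CPM and then 204, 216 and 194 CPM for Pde10a. Together with Zbtb16, Fkbp5, Cpt1a and the 5 genes Pcmtd2, Ppp1r12b, Abcc5, Tardbp and Hnrnpr, these make up the 12 falls called under all of those 17 settings. Zbtb16 and Fkbp5 alone kept the call without 0A, 0C, 15D, 30A and 30B, and Thy1 was lost without 0C and 30A too (adjusted p = 0.0694).

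The last of these are RNA-binding proteins with small, tight falls. Tardbp, which encodes TDP-43, had 217, 211, 192 and 211 CPM and then 128, 129 and 162 CPM (-0.58 ± 0.12; adjusted p = 0.00374), and Hnrnpr 272, 258, 263 and 239.7 CPM and then 179, 178 and 195 CPM (-0.49 ± 0.1; adjusted p = 0.00275). Neither group overlapped.

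Of the 10 largest falls in mean CPM, Zbtb16 and Slc43a3 are described above, and the others were less secure. Chodl, a lectin-like membrane protein abundant in these cells, had 1057, 1928, 1123 and 1191 CPM at T0 and 659, 662 and 888 CPM at T30 (-0.85 ± 0.22; adjusted p = 0.0229), a loss of 588 CPM in the mean. Nav2 had -0.82 ± 0.2, Lrp6, a WNT coreceptor, -0.64 ± 0.18, and Txnip, an inhibitor of glucose uptake and of thioredoxin, 539, 649, 151 and 460.2 CPM and then 121, 169.5 and 185 CPM (-1.51 ± 0.37; adjusted p = 0.0168). In Txnip the low T0 library 0C lay among the T30 libraries. Calls lost with 1 library fewer were those of Chodl (without 0B, 30A or 30B), Nav2 (without 0D or 30B), Txnip (without 0B, 30A or 30B), Iqgap2 (without 0A, 0B, 0D, 30A or 30B), Olfml2a (without 0B, 0D, 30A or 30B), Ltbp1 (without 0B, 30A or 30B), Lrp6 (without 0B, 0D, 30A or 30B), Ttyh1 (without 30A) and Pgm5 (without 0B, 30A or 30B), and with the 7 libraries alone those of Chodl, Nav2, Txnip, Iqgap2, Olfml2a, Ltbp1 and Lrp6.

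Several further lists are given by their counts, to be read beside the 3.66% raised and 1.34% fallen of all genes. Of 13 measured Notch receptors, ligands and targets 0 were called, with a median of 0.14; the receptor Notch3 had 0.1 ± 0.15, and the target Heyl 0 ± 0.15. Hes1, a quickly responding Notch target, had 49.9, 50.6, 55.9 and 40.7 CPM and then 65.5, 71.2 and 90 CPM (0.63 ± 0.34; adjusted p = 0.326), and it was called with the 7 libraries alone (adjusted p = 0.048). Of 26 ribosome biogenesis genes 0 were called (median -0.06), and of 29 chromatin enzymes 1, the H3K27 demethylase Kdm6b, rose (0.89 ± 0.15). Of 42 matrix and adhesion genes 3 rose and 1 fell, of 19 ubiquitin regulators 3 rose, and of 16 hypoxia genes 2 rose, Vegfa and Bhlhe40; of 18 FoxO genes 2 fell, Txnip and Foxo3. Of 24 nuclear-encoded respiratory chain genes 1, Ndufv1, fell, and the list's median was -0.29.

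Myogenic and quiescence genes were mostly level. Of 38 measured satellite cell quiescence and identity genes 2 rose, Fos and Sox9, and 1 fell, Foxo3, with a median of 0.03. Sox9 had 24.6, 13.4, 18.2 and 13.5 CPM at T0 and 69.5, 43.6 and 39.6 CPM at T30 (1.55 ± 0.26). Pax7, Myf5 and Myod1, which mark and direct the lineage, had 0.31 ± 0.17, 0 ± 0.18 and 0.15 ± 0.21 (adjusted p = 0.338, 0.993 and 0.742). Of 16 myogenic commitment genes 3 rose: Id3, Des, the muscle intermediate filament, with 394, 529, 423 and 433 CPM and then 816, 725 and 916 CPM (0.88 ± 0.15; adjusted p = 0.000617), and Cdon, a cell adhesion receptor (0.75 ± 0.16), whose call was lost with the 7 libraries alone. Of 21 cell cycle and MYC genes 1 rose, Cdkn1a, and 1 fell, Mxd4. Myc and the cyclin Ccnd1 had 0.27 ± 0.2 and 0.14 ± 0.33 (adjusted p = 0.505 and 0.863).

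**Figure D3:**
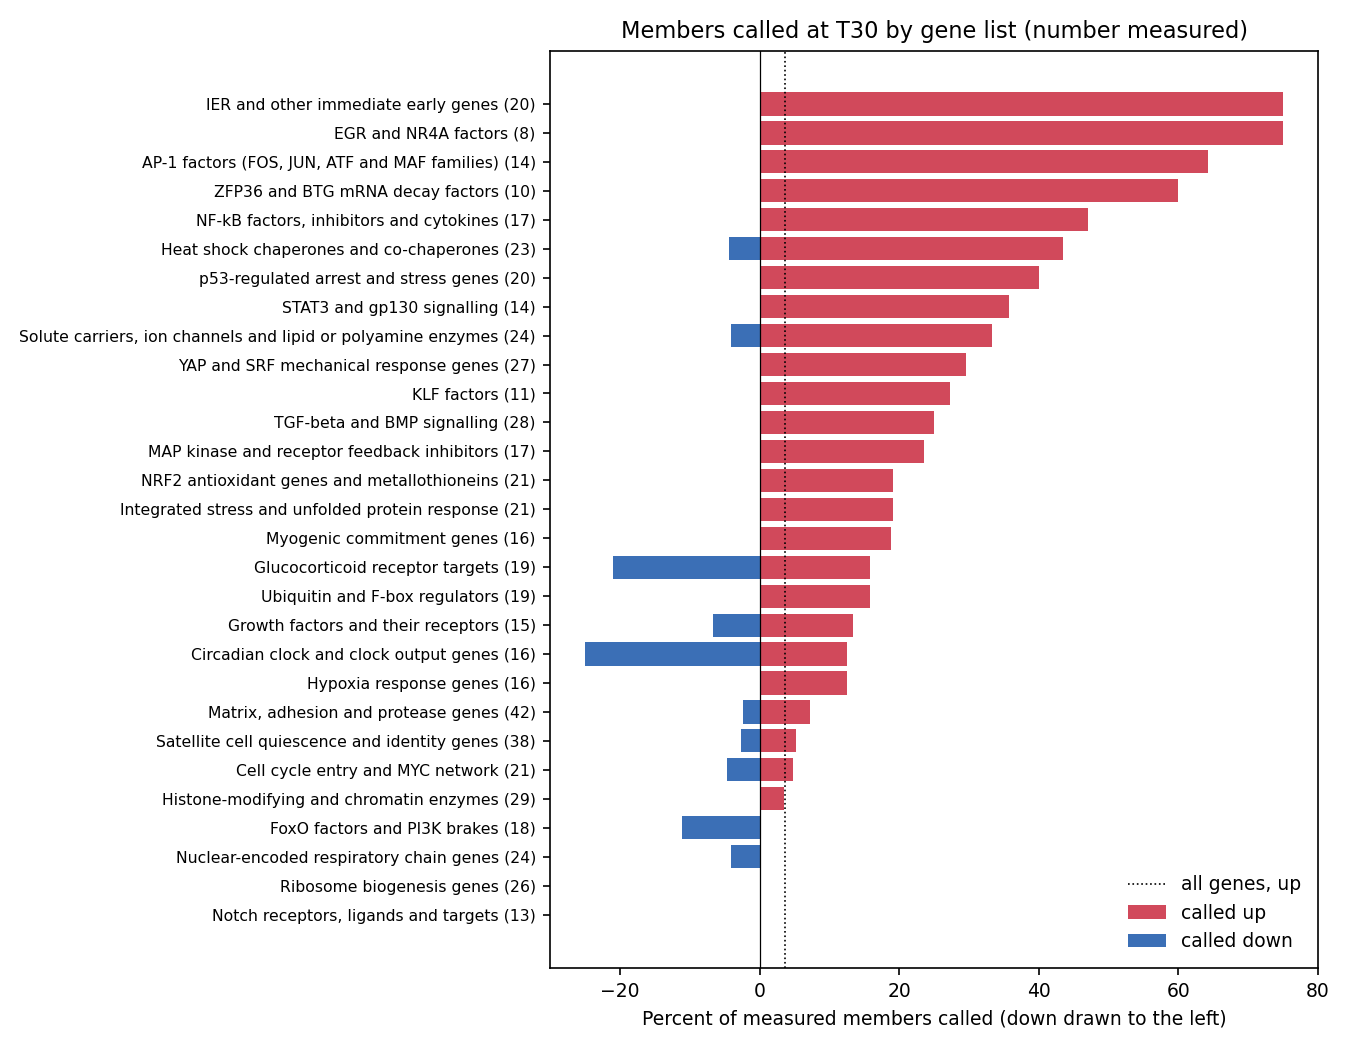
Percent of measured members called up (right) and down (left) in each of 29 gene lists, with the number measured in parentheses and a dotted line at the 3.66% of all genes called up. Immediate early, EGR, AP-1 and mRNA decay lists reach 60% or more, and the clock and glucocorticoid lists hold the largest shares of falls.

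Apart from Cd68, no marker of another cell type was called. None of the 7 measured myofibre markers was called, and they summed to between 479.4 and 703.1 CPM at T0 and between 480.7 and 1157 CPM at T30. Neither were the 5 fibro-adipogenic, 6 endothelial, 8 smooth muscle and 2 glial markers measured. The fibro-adipogenic markers summed to 1725 to 2911 CPM at T0 and 1662 to 2479 CPM at T30, the endothelial ones to 161.2 to 252 and 144.5 to 297.6 CPM, the smooth muscle ones to 1010 to 1176 and 1196 to 1329 CPM, and the glial ones to 892.5 to 901 and 628.1 to 826.1 CPM. The sums overlapped between groups except in the smooth muscle list, where every T30 sum lay above every T0 sum, and the glial list, where every one lay below. The 2 glial genes differed in sign, with log2 fold changes of -0.35 for Ncam1 and 0.61 for Mbp. Their mean CPM differed by -188.2 and 8.117, so the lower glial sum came from Ncam1 alone. Markers such as Ncam1, or Notch3 of the smooth muscle list, may be expressed by the stem cells too. The sums therefore do not measure the share of other cell types. The part of these other cell types in the results above was not tested. No tenocyte or erythroid marker is among the listed genes.

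The raised genes were short and simple in structure. Ranked by genomic span, 8.15% of the shortest quartile (under 12591 bases) rose, then 3.98%, 1.59% and 0.895% of the longest quartile (over 67156 bases). No such slope was seen for falls, at 1.34%, 1.89%, 0.994% and 1.14%. The median span was 10648.5 bases for raised genes, 24444.5 for fallen genes and 29223 for all. With the background subtracted the shares of rises were 10.6%, 6.61%, 3.78% and 3.99%, so the shortest quartile was still highest and the longest no longer lowest.

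Exon number gave a like picture. Genes without introns rose in 8.49% of cases, genes of 2 to 4 exons in 9.82%, of 5 to 10 exons in 3.76% and of more than 10 exons in 1.82%. Of 74 protein-coding genes with a single exon 13 rose (17.6%), among them Jun, Jund, Ier2, Ier5, Hspa1a and Hspa1b. The median number of exons was 6 for raised, 10 for fallen and 11 for all genes. By mean CPM over all 22 libraries, T30 included, 6.65% of the most abundant quartile of genes rose against 1.94% of the least abundant. A rise itself can move a gene into a higher quartile, so these shares do not show a relation to the starting level.

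**Figure D4:**
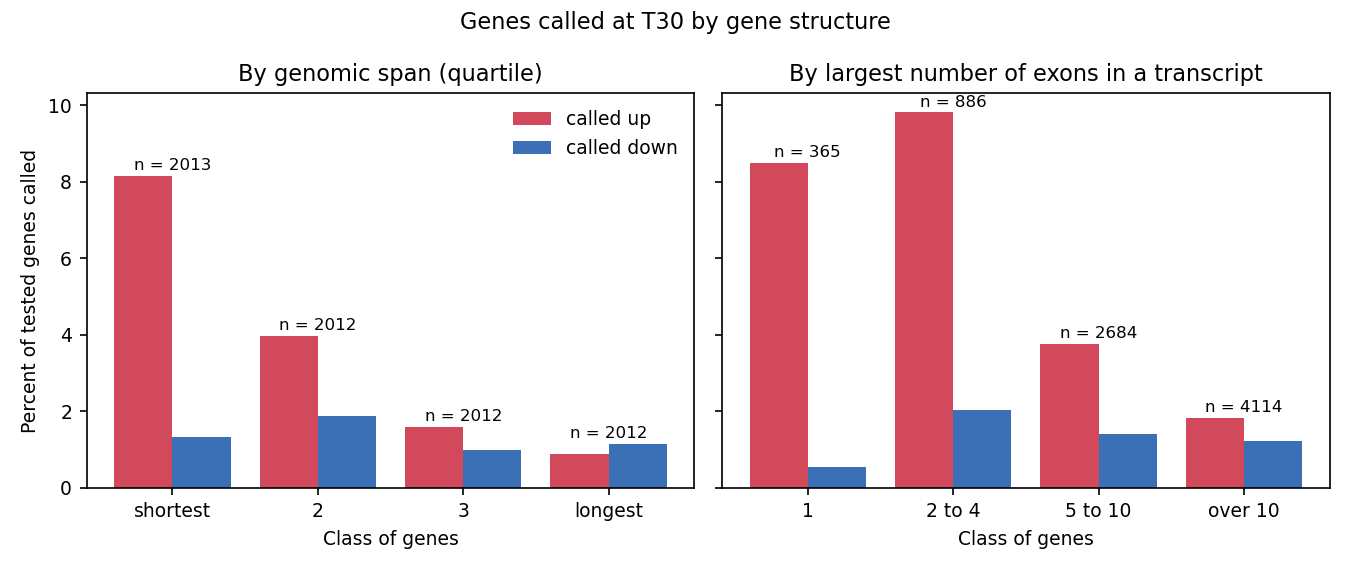
Percent of tested genes called up and called down by quartile of genomic span (left) and by the largest number of exons in a transcript (right), with the number of genes above each pair of bars. Rises thin out from the shortest to the longest genes, and falls lie between 0.548% and 2.03% in every class.

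Noncoding transcripts were part of the response. Of the raised genes 29 are annotated but not as protein coding, and 379 such genes were not raised. For comparison, 3.66% of all genes and 3.47% of protein-coding genes rose. The 29 include 8 of 51 listed lincRNAs (15.7%), 13 of 108 unconfirmed transcripts (12%, the annotation class TEC) and 3 of 14 sense intronic ones (21.4%). Shares were lower for processed transcripts (2 of 32, 6.25%), antisense genes (1 of 20, 5%) and processed pseudogenes (2 of 47, 4.26%). Of 80 small nucleolar RNAs 0 rose. After background subtraction 19 of the 29 were called up, beside 245 of all 295 raised genes. Neat1, the scaffold RNA of nuclear paraspeckles, had 791, 837, 756 and 819 CPM at T0 and 1675, 1418 and 1590 CPM at T30 (0.96 ± 0.16; adjusted p = 0.000386). Mir22hg, the host transcript of a microRNA, had 12.8, 7.48, 5.87 and 6.2 CPM and then 46.7, 38 and 40.2 CPM (2.37 ± 0.2; adjusted p = 5.11e-08).

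Some of these lay beside raised coding genes. Neighbours were sought only among the coding genes tested here. Of the 29, 6 (20.7%) had a nearest such gene within 5000 bases that was itself raised, against 8 of 379 (2.11%) of the other noncoding genes. Any tested coding gene lay that near for 22 of the 29 and for 247 of the 379. Gm26802 (chr7:19298260-19300770, minus strand) lies 1926 bases from Fosb on the same strand and had 3.95, 0.869, 5.03 and 1.53 CPM and then 54.7, 40 and 49.2 CPM (4.21 ± 0.53). Gm26532 lies 1069 bases from Zswim4 on the other strand; it rose by 3.34 ± 0.3 and Zswim4 by 0.71 ± 0.17. Gm17024 lies within Ifrd1 and 2610306O10Rik within Bag3, with changes of 2.59 ± 0.31 and 2.09 ± 0.37. The sources used here do not say whether counting used the strand, and reads that run on from a gene or remain in its introns cannot be told apart from a separate transcript.

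The neighbouring time points place T30 in the course, and they share the T0 libraries. Dusp1 already had 524, 383, 396 and 328 CPM in the 4 T15 libraries, and Actg1 21.8, 12.4, 22.9 and 14.4 CPM, both overlapping T30. Fosb had 2101, 1776, 2689 and 1559 CPM at T15, below every T30 library, and 7326, 4891, 6098 and 4260 CPM at T60, and Hspa1a had 31.2, 16.6, 31.6 and 30 CPM and 164, 182, 169.5 and 174 CPM. Of the sterol genes, Hmgcs1 had 15.6, 14, 16.9 and 23.2 CPM at T15 and Msmo1 6.74, 3.61, 10.5 and 26.3 CPM, both overlapping T0, with 1 Msmo1 library above every T0 library, and at T60 they had 140.4, 142, 117 and 248 and 89.4, 92.5, 69 and 157 CPM.

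The 4 fallen genes plotted overlapped T0 at T15 and lay wholly below it at T60. Zbtb16 had 589, 559, 429 and 379 CPM at T15 and 169, 187, 188 and 236 CPM at T60. Fkbp5 had 184, 167, 112 and 83.1 CPM and 32.2, 44.2, 47.3 and 43.3 CPM. Cpt1a and Thy1 had 114 to 203 and 46.1 to 75.1 CPM at T15, and 71.7 to 82.2 and 25.9 to 48.3 CPM at T60.

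**Figure D5:**
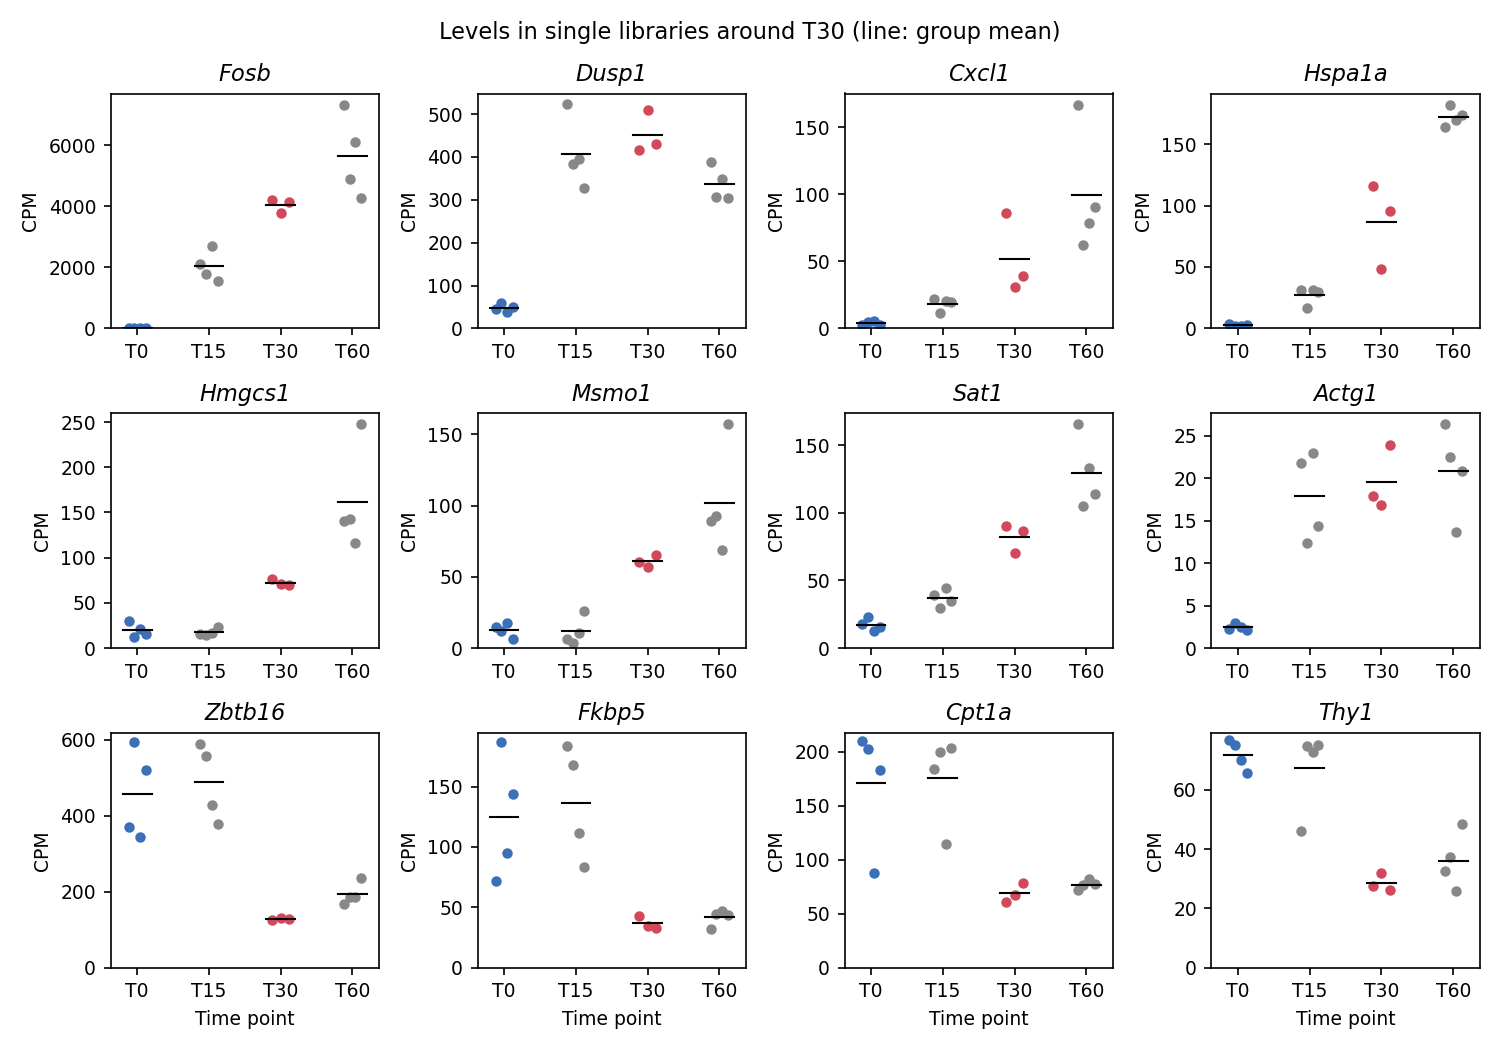
CPM in single libraries at T0, T15, T30 and T60 for 12 genes, with a line at each group mean. Fosb, Dusp1 and Actg1 are up at T15, Hmgcs1 and Msmo1 overlap T0 at T15 and are up at T30, and Zbtb16, Fkbp5, Cpt1a and Thy1 are down at T30 and T60.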

How the data were processed

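The bulk libraries were stranded total RNA from fixed cells, read as 65-base single reads, per the labels' protocols. The deposited table holds whole-number counts per gene, per the file headers, and the submitters' processing notes name cutadapt 1.11, featureCounts 1.4.5-p3, DESeq2 1.18.1 and mm10; the aligner and strand setting are not stated there. Further deposited columns hold counts divided by the authors' size factors and rounded, a score used only to recover those factors. The table's lowest mean normalized count is 98.4, so weakly expressed genes are left out, and totals over listed genes are not full depth. The other 9 of 15 samples of the series were not analysed here.

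The test was the quasi-likelihood F test of edgeR 4.0.16 (R 4.3.3) on the deposited counts, TMM factors, 22 libraries, time point as a factor, no covariate, Benjamini-Hochberg adjustment over 8059 genes, called at 0.05. The common biological coefficient of variation was 0.192. The SE is the absolute log2 fold change divided by the root of F. Names and positions come from GENCODE vM21 (GRCm38), which matched 8049 identifiers. The script was tested on simulated data.

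Alternatives were the authors' size factors, filters on low counts, subsets of libraries, each library left out, a replicate block, subtraction of the background or of 0.5 of it, limma-voom (limma 3.58.1) and DESeq2 1.42.0. Genes named are the 30 largest rises and 25 largest falls, the 10 largest gains and losses of mean CPM, called members and standard readouts of the gene lists, and the markers; others are said to have been chosen after their values were seen, as were the sterol, fatty acid, polyamine and tubulin lists with their members, the noncoding neighbours and the 12 most repeatable falls. The members and lists were chosen with earlier results of these data known. Results for some genes are not reported here.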

Additional observations from a re-analysis of the deposited data

Results flagged for a closer look

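In 5 of 237 groups of 4 T0 libraries tested, 1 library stood apart by Dixon's ratio (the gap to the nearest library over the whole range, on log2 of CPM plus 1) above Dixon's critical value for 4 values; chance flags about 1 in 20 such groups. Cpt1a had 209.8, 203, 88 and 183 CPM in 0A to 0D, with 0C low (ratio 0.842). Pim1 had 4.33, 9.91, 8.94 and 8.9 CPM, with 0A low (ratio 0.865), and Myc 168, 104, 179 and 166 CPM, with 0B low (ratio 0.863). Amd1, a polyamine synthesis gene, had 8.47, 8.35, 7.54 and 8.36 CPM, with 0C low (ratio 0.874). Nab2 had 29.2, 19.5, 30.7 and 29.7 CPM (ratio 0.885). Of the called genes among these, Pim1 lost its call without 0A.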

How the results depend on the processing

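The number of genes called was 403 and fell to 244 without 30A; over all single libraries left out it ran from 244 to 565. It was 638 after background subtraction and 761 after subtraction of 0.5 of the background, with 503 and 535 rises, and 226 falls in the latter. Falls numbered 108, and 41 with the authors' size factors, 40 with the 7 libraries alone, 46 with T0, T15 and T30, 68 with limma-voom, and 27 to 191 with 1 library left out (27 without 0B or 30B, 31 without 30A, 45 without 0D and 191 without 30C). Alternatives added after the data were seen left out 0C and 30A (227 called, 20 down) or 0A, 0C, 15D, 30A and 30B, which leaves T30 with 1 library assumed to vary like the other groups (147 called, 140 up, 7 down). DESeq2 called 554 genes, 411 up and 143 down. Genes with groups that do not overlap numbered 1392, and 1608 to 3357 with 1 library left out (3357 without 30C). Between libraries of the same letter the correlations of deviations were 0.306 for A, -0.321 for B and -0.448 for C. Those of unlike letter ran from -0.476 (0D with 30A) to 0.414 (0D with 30C). Positive values came mostly where both libraries lay on the same side of their group's mean background density. This check therefore cannot tell whether libraries were paired. With the replicate block 394 genes were called, 297 up and 97 down. Of 235 named genes 47 lost the call without 30A, 37 with the 7 libraries alone and 82 without those 5 libraries, and no named gene that was called changed direction in any alternative. The background difference kept its sign without any 1 library or gene. Background subtraction moved the median of all genes to -0.13. Depth limits the weakest genes, those near the background density.
Of the called genes named in the text, these lost the call with the 7 libraries alone: Actb, Bbc3, Cdon, Cebpd, Chodl, Ddit3, Dnajb5, Dusp5, Egfr, Foxo3, Gadd45g, Hsd17b4, Hspa2, Ier5, Iqgap2, Lrp6, Ltbp1, Mxd4, Nav2, Ndufv1, Nr1d2, Olfml2a, Plk2, Relb, Scd2, Smurf1, Srebf1, Stip1, Txnip, Txnrd1 and Zyx. With the authors' size factors Dbp, Foxo3, Hsd17b4, Iqgap2, Lrp6, Mxd4, Ndufv1, Nr1d1, Nr1d2, Olfml2a, Stip1 and Tef lost it, and with the background subtracted Aacs, Bbc3, Chodl, Dusp6, Hsd17b4, Iqgap2, Klf16, Lrp6, Ltbp1, Ndufv1, Nr1d1, Olfml2a, Pgm5, Pim1, Sc5d, Smurf1, Stip1 and Txnip.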
